A study of Mus musculus with 6 samples.

Results

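Zinc finger genes with family names, together with the Klf and Ikzf genes, were followed in a map of N4-acetylcytidine (ac4C), a cytidine modification of RNA. Members were genes whose symbol began with Zfp, Zbtb, Zkscan, Zscan, Klf or Ikzf followed by a digit. They accounted for 19 of the 1876 summits in the list and for 18 of its 1485 genes. A summit is a point of locally highest coverage within a region that the authors' peak caller found in the pull-down, and a region can hold several. The gene table used for names held 512 genes with such symbols, of which 487 were protein-coding, and 494 of the 512 had no summit in the list. The authors' peak numbers ran up to 33651, and 1824 of these numbers, or 5.42%, appeared in the list. The sources used here do not say how those entries were selected, so each listed share below is a share after that unknown selection.

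The cells were wild-type 32D, an established mouse bone marrow line that the labels call lymphoblastocytes and that is widely used as a myeloid progenitor model. They were grown with interleukin 3 at 10 ng/mL. Poly(A) RNA gave 6 libraries, 2 each with an ac4C antibody, with control IgG and as input without antibody. The list came from the merged ac4C libraries, and the labels do not say whether the 2 libraries of a group were separate cultures. No value belonged to a single library, so there is no replicate error and no test between antibody, IgG and input could be made. Of 10 markers of myeloid progenitors, 3 had a summit, or 30.0% (95% interval 6.67% to 65.2%, exact Clopper-Pearson), beside 6.71% of all protein-coding genes. The interval includes 6.71%, so the marker share was not resolved from that background. Spi1, the gene of the myeloid factor PU.1, had a fold enrichment over the peak caller's background of 53.6. The cytokine receptor gene Csf2rb had 9.02 and the granule protease gene Prtn3 had 4.27. Mpo, Elane, Ctsg, Cebpa, Kit, Ptprc and Gata2 had none, and neither did any of 4 B cell, 4 T cell and 4 non-hematopoietic markers (exact upper limit 60.2% for each list). The list does not measure expression, so a gene without a summit can be unexpressed, unmodified or left out by a filter.

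Most proteins of these families bind DNA through C2H2 fingers, short loops in which a zinc ion is held by a pair of cysteines and a pair of histidines. Many Zfp proteins carry a KRAB domain, which recruits the corepressor Trim28 and silences transposable elements. Zbtb proteins carry a BTB domain for pairing and corepressor binding, Zscan proteins a SCAN domain, and Zkscan proteins both SCAN and KRAB. Klf proteins bind GC-rich and CACCC elements and steer blood, vascular and epithelial differentiation. Ikzf proteins, the Ikaros family, act in lymphoid development with the NuRD remodelling complex. The name Zfp is not limited to transcription factors: Zfp36 and its relatives have CCCH fingers, bind AU-rich elements in mRNA and promote its decay. Which Zfp proteins hold a KRAB domain was not determined, because protein sequences were not used here, and the Zfp genes were therefore compared by name with the other families.

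Few family genes were listed. Among protein-coding members, 18 of 487 had a summit, or 3.70% (95% interval 2.20% to 5.78%). The background over all protein-coding genes was 6.71%, which lay above that interval. Intervals here cover counting error over genes alone, and no test of this difference was made. Expression of the unlisted members was not measured, so its part in this share was not tested.

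Zfp genes made up most of the members. Of 397 protein-coding Zfp genes, 12 had a summit, or 3.02% (1.57% to 5.22%). The Zbtb, Zkscan, Zscan, Klf and Ikzf genes together had 6 of 90, or 6.67% (2.49% to 13.9%), beside the background of 6.71%. The Zfp share lies inside the interval of the other families, while their share lies above the Zfp interval. The intervals overlap and no test was made, so the families were not told apart by this count. Their order turned when only summits at or above the list's median fold of 11.4 were counted. Zfp genes then had 6 of 397, or 1.51% (0.557% to 3.26%), and the other families 1 of 90, or 1.11% (0.0281% to 6.04%), beside a background of 3.65%.

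Single families were small. Klf genes had 3 of 17, or 17.6% (3.80% to 43.4%), and Ikzf genes 1 of 5, or 20.0% (0.505% to 71.6%). Zbtb genes had 2 of 41, or 4.88% (0.596% to 16.5%). No summit was listed for 11 Zkscan genes (upper limit 28.5%) or for 16 protein-coding Zscan genes (upper limit 20.6%). Each of these 5 intervals includes the background of 6.71%. The Zfp36 subfamily had 2 of 4 genes listed, Zfp36 and Zfp36l2; this subgroup was chosen after its values were seen.

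**Figure D1:**
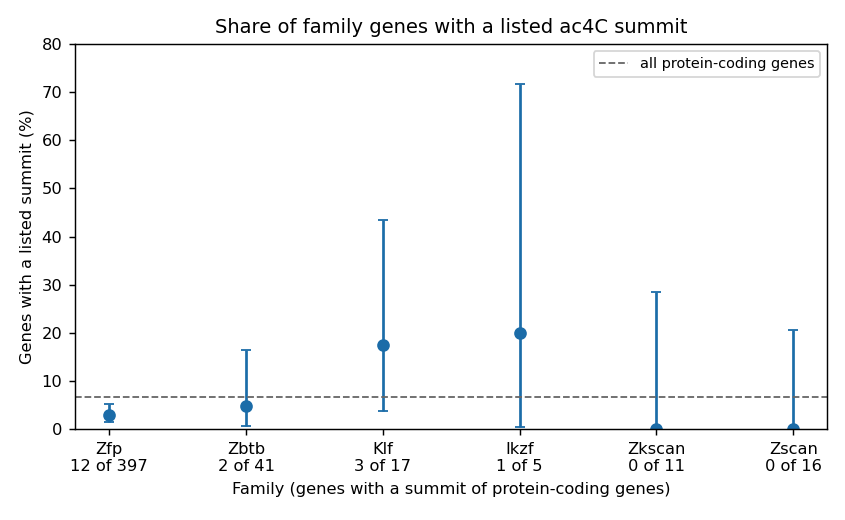
Share of protein-coding genes with a listed ac4C summit (vertical axis, percent) in each family (horizontal axis, with counts); points are shares, bars are exact 95% intervals, and the dashed line is the share over all protein-coding genes, 6.71%. The Zfp interval, 1.57% to 5.22%, is the only one that lies wholly below the line; the others span it.

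Many zinc finger genes stand in tandem clusters of close relatives. In the gene table, 243 of 487 protein-coding members, or 49.9%, lay next to another family gene along the chromosome. Among members with a summit this held for 6 of 18, or 33.3%. They were Zfp60, Zfp811, Zfp984 and Zfp617, each flanked by family genes on both sides, and Zfp445 and Zfp692, each with a family gene on 1 side. Neighbours were judged by symbol alone. A neighbour could thus belong to another of these families, and zinc finger genes with other names were not counted. Members with a family neighbour were listed in 6 of 243 cases, or 2.47% (0.911% to 5.30%). Members with no family neighbour were listed in 12 of 244, or 4.92% (2.57% to 8.43%). These intervals overlap; the background of 6.71% lay above the first and inside the second. Within the Zfp genes the shares were 2.83% (1.05% to 6.06%) with a family neighbour and 3.24% (1.20% to 6.93%) without. In the other families they were 0 of 31 (upper limit 11.2%) and 6 of 59, or 10.2% (3.82% to 20.8%). The background lay above the interval for Zfp genes with a family neighbour and inside the other 3. How alike neighbouring genes are in sequence, and how reads shared between them were aligned, was not measured, so the part of read sharing in these shares was not tested.

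Fold enrichment at a summit is the number of ac4C fragments stacked there, plus 1, over a background of 1.11 fragments, plus 1, and that background was the same at every summit. No fold was thus taken over IgG or input coverage that varied between transcripts. The sources used here do not say whether IgG, input or no control was given to the peak caller. The folds are therefore not shown to be enrichment over IgG or input. Because the background was constant, the number of stacked fragments, here called the pileup, could be recovered. It gave each fold a counting interval (exact Poisson, 95%), which covers counting error only and not the spread between cultures. This ratio is not corrected for transcript abundance, so the fold cannot separate strong modification from a common mRNA. All folds below are on this scale and are the authors' values. Across the 19 family summits the pileup ran from 6 to 118 fragments with a median of 16, against a median of 23 over the whole list.

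Folds of the members spanned a 17.0-fold range, and 3 genes stood at the top. Zfp60, a zinc finger gene with family genes on both sides, had the highest, 56.5 (interval 46.8 to 67.6). Its 118 fragments lay at nt 4342 of ENSMUST00000108336, in the 3' untranslated region. It ranked 50 among the 1485 listed genes. Zfp36l2 followed with 45.1 (36.5 to 55.1), from 94 fragments at nt 1203 of ENSMUST00000060366, in coding sequence. Its product is an mRNA decay factor of the tristetraprolin group that is needed for blood formation in mice, and it ranked 90. The summit carries the letter c in the authors' naming of summits within 1 peak, and no other summit of that peak was in the list. Zfp706, which encodes a very small zinc finger protein known from work on the exit of embryonic stem cells from self-renewal, had 31.8 (24.7 to 40.3). Its 66 fragments lay at nt 188 of ENSMUST00000078976, the only family summit in a 5' untranslated region, and the gene ranked 195. The intervals of Zfp60 and Zfp36l2 overlap, as do those of Zfp36l2 and Zfp706, while Zfp706 lay wholly below Zfp60. All 3 intervals lay above 12.3, the median of the other listed genes.

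**Figure D2:**
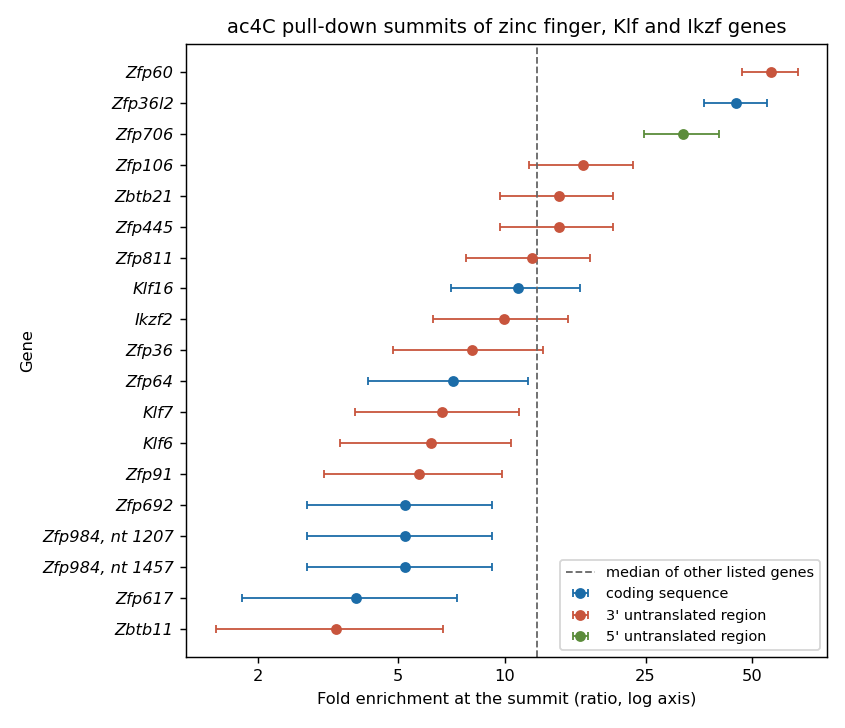
Fold enrichment (horizontal log axis, a ratio) at each of the 19 family summits, 1 row per summit; points are the authors' folds, bars are 95% Poisson counting intervals, colours give the region, and the dashed line marks the median of the other listed genes, 12.3. Zfp60, Zfp36l2 and Zfp706 sit apart at 31.8 to 56.5, and 8 genes have bars wholly to the left of the line.

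A middle group of 7 genes had intervals that include 12.3. Zfp106, whose product binds RNA and is needed for motor neuron and muscle function, had 16.6 (11.7 to 23.0) at nt 7999 of ENSMUST00000055241. Zbtb21, the gene of a BTB repressor, had 14.2 (9.69 to 20.2) from 29 fragments at nt 4595 of ENSMUST00000063605. Zfp445, a KRAB zinc finger gene known for keeping genomic imprints, had the same fold and the same 29 fragments, at nt 3304 of ENSMUST00000216063. Zfp811 had 11.9 (7.77 to 17.4) at nt 2347 of ENSMUST00000200914. These 4 summits were all in 3' untranslated regions.

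Klf16, Ikzf2 and Zfp36 completed that group. Klf16, which encodes a GC-box binding factor, had 10.9 (7.02 to 16.3) from 22 fragments at nt 838 of ENSMUST00000038558, in coding sequence. Ikzf2 encodes Helios, an Ikaros relative best known in regulatory T cells, and had 9.97 (6.27 to 15.1) from 20 fragments at nt 2587 of ENSMUST00000027146, in the 3' untranslated region. Zfp36 encodes tristetraprolin, which drives decay of cytokine mRNAs, and had 8.07 (4.82 to 12.8) from 16 fragments. Its summit was at nt 2204 of ENSMUST00000209061, in the 3' untranslated region, whereas that of its relative Zfp36l2 was coding. The intervals of these 2 relatives do not overlap, with Zfp36l2 the higher.

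The remaining 8 genes had intervals wholly below 12.3. Zfp64, the gene of a factor that drives MLL expression in leukaemia, had 7.12 (4.11 to 11.6) in coding sequence at nt 2068. Klf7 had 6.65 (3.76 to 11.0) from 13 fragments at nt 2974 of ENSMUST00000114086, and Klf6 had 6.17 (3.42 to 10.4) from 12 fragments at nt 1178 of ENSMUST00000000080. Both lay in 3' untranslated regions; Klf7 acts in neuronal development, and Klf6 is known as a tumour suppressor and in macrophage activation. Zfp91, whose product is a ubiquitin ligase in non-canonical NF-kappaB signalling, had 5.70 (3.08 to 9.82) in the 3' untranslated region at nt 4435. Zfp692, which encodes a regulator of gluconeogenic genes, had 5.22 (2.75 to 9.20) in coding sequence at nt 1220.

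Zfp984 was the only member with more than 1 summit. Both lay in the coding sequence of ENSMUST00000122309, at nt 1207 and nt 1457, 250 nt apart, and each had 10 fragments and a fold of 5.22 (2.75 to 9.20). Zfp617 had a coding summit of 3.80 (1.81 to 7.32) from 7 fragments at nt 1769. Zbtb11, which is needed for neutrophil development in zebrafish, had the lowest fold, 3.32 (1.52 to 6.67), from 6 fragments at nt 4060 in the 3' untranslated region. Only 0.0673% of listed genes had a lower highest fold than Zbtb11, and 1.21% had a lower one than Zfp617.

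Most neighbours in this order had overlapping intervals. Overlap is a strict rule: folds with overlapping intervals can still differ, and no pair was compared directly. Of the 17 steps from one gene to the next, 1 had intervals that do not overlap, that from Zfp706 to Zfp106. Among all 153 pairs of members, 65 had intervals that do not overlap. Within the 6 Zbtb, Klf and Ikzf genes this held for 2 of 15 pairs. The intervals of Klf16, Klf7 and Klf6 all overlap, so their folds were not ranked here.

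The other Klf and Ikzf genes had no listed summit. Klf1, the erythroid factor, Klf2 and Klf4, which act in leukocytes and endothelium, and Klf3, Klf5, Klf8, Klf9, Klf10, Klf11, Klf12, Klf13, Klf14, Klf15 and Klf17 were among them. In the Ikaros family Ikzf1 (Ikaros), Ikzf3 (Aiolos), Ikzf4 (Eos) and Ikzf5 (Pegasus) were unlisted.

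As a group the listed members had a median highest fold of 9.02 (exact binomial interval of the median 5.70 to 14.2; 18 genes). The other 1467 listed genes had a median of 12.3 (11.9 to 13.3), a ratio of 0.731. The members' interval includes 12.3, so a lower median was not resolved with 18 genes. Of the members, 7 reached the list's median summit fold of 11.4, or 1.44% of the 487 protein-coding genes (0.580% to 2.94%). The background for that count was 3.65% of all protein-coding genes. Among genes with a summit, 38.9% of members and 54.8% of other genes reached 11.4. Neither share was given an interval or a test, so no difference between them was resolved.

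Counting intervals were also set against the other genes' median. They lay wholly above 12.3 for 3 members, or 16.7%, included it for 7 and lay wholly below it for 8, or 44.4%. Among the other listed genes 33.2% lay above and 28.6% below. The members' shares rest on few genes and were given no interval or test, so no difference from the other genes was resolved. Zfp genes had a median of 9.97 (5.22 to 31.8; 12 genes), and Zbtb, Klf and Ikzf genes 8.31 (3.32 to 14.2; 6 genes), a ratio of 1.20 with overlapping intervals. The 6 members with a family neighbour had a median of 8.54 and the 12 without had 9.02.

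**Figure D3:**
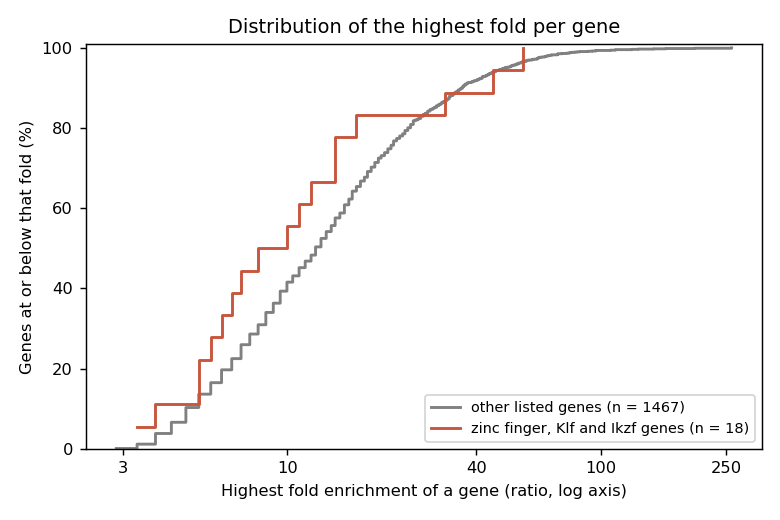
Cumulative share of genes (vertical axis, percent) by the highest fold of a gene (horizontal log axis, a ratio) for the 18 family genes and the 1467 other listed genes. The family curve runs to the left of the other over most of the range, with medians of 9.02 and 12.3, and crosses it near the 3 highest members.

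Family summits lay mostly in 3' untranslated regions. These held 11 of 19 summits, or 57.9% (33.5% to 79.7%), against 832 of the 1857 other summits, or 44.8% (42.5% to 47.1%). Coding sequence held 7 of 19, or 36.8% (16.3% to 61.6%), against 48.1% of the others. The 5' untranslated region held the 1 summit of Zfp706, or 5.26% (0.133% to 26.0%), against 7.11%. Each family interval includes the share of the other summits, so no difference in region was resolved. Zfp summits were split evenly, with 6 of 13 in coding sequence and 6 of 13 in 3' untranslated regions. In the Zbtb, Klf and Ikzf genes 5 of 6 were in 3' untranslated regions, or 83.3% (35.9% to 99.6%), and Klf16 held the only coding one. The interval for Zfp summits in that region, 19.2% to 74.9%, overlaps it.

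Along the transcript, the family's coding summits lay later than the median of other coding summits. They ran from nt 838 on Klf16 to nt 2068 on Zfp64, with a median of nt 1220 (exact binomial interval 838 to 2068; 7 summits). The other coding summits had a median of nt 717 (642 to 785, 893 summits), and 396 of them, or 44.3%, lay at or beyond nt 838. That cut is the family's own earliest coding summit, so every family coding summit reaches it by construction. The 44.3% thus only describes the other summits and is no measure of a difference. In 3' untranslated regions the family median was nt 3304 (2204 to 4595; 11 summits) and that of the others nt 2229.5 (2086 to 2377), inside the family interval. Of those 11 family summits, 9 lay beyond the others' median, all but Klf6 and Zfp36. Transcript lengths were not used here, so a late position cannot be told apart from a long transcript.

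**Figure D4:**
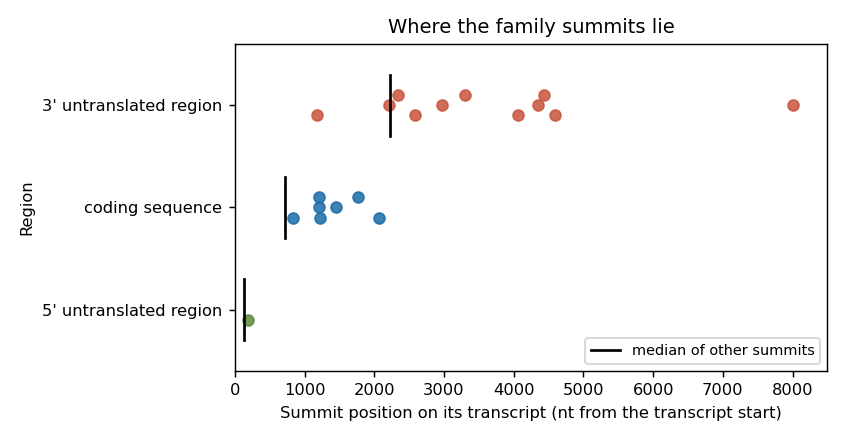
Position of the 19 family summits in nt from the transcript start (horizontal axis) by region (vertical axis); points are summits, spread vertically within a region for visibility, and black bars are the medians of the other summits. All 7 coding summits lie to the right of the other genes' median of nt 717, and the 3' untranslated summits spread from nt 1178 to nt 7999.

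Proteins that work with these factors were examined through lists of their genes. For the KRAB corepressor machinery, 5 of 16 genes had a summit, or 31.2% (11.0% to 58.7%), set against the background of 6.71%. Cbx3, a heterochromatin protein 1 gene, had 57.9 (48.1 to 69.1) in the 5' untranslated region, a fold close to that of Zfp60. Atf7ip, the gene of a partner of the methyltransferase Setdb1, had 24.7 and 16.1, both in the 3' untranslated region. Uhrf1 had 15.2 and 7.59, Cbx1 had 7.59, and the DNA methyltransferase gene Dnmt1 had 3.80. Trim28, Setdb1, Cbx5, Mphosph8, Tasor, Pphln1, Morc2a, Morc3, Dnmt3a, Dnmt3b and Smarcad1 had none.

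Among partners of BTB proteins, 2 of 13 genes were listed, or 15.4% (1.92% to 45.4%). They were Hdac3, a histone deacetylase gene, at 35.6 and Tbl1xr1, of the same NCoR complex, at 20.4. For the Ikaros partners and NuRD, 6 of 18 were listed, or 33.3% (13.3% to 59.0%). Chd4, the NuRD remodeller, reached 31.8, Hdac1 21.8 and Mbd2 17.1. Mta1 reached 7.12, Mbd3 6.65 and Ctbp1 4.75. Of 41 other C2H2 factor genes outside the name patterns, 2 were listed, or 4.88% (0.596% to 16.5%), with the background of 6.71% inside its interval. They were Yy1 at 26.1 and Bcl11b at 12.8, both in 3' untranslated regions, while Sp1, Gfi1, Egr1, Bcl6 and Ctcf had no summit. These lists are small, were chosen with earlier results known and received no test.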

How the data were processed

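The 6 ac4C, IgG and input libraries are described in the labels, and 1 list of summits was analysed. The submitters' processing notes name GRCm39 as the mouse build and cutadapt, Bowtie2 and MACS2 as tools; versions and parameters are not given in the sources used here. Per the file headers, the deposited list gives each summit's fold enrichment (a ratio) and −log10 p-value; its entry names read as a call on merged ac4C libraries. The depth of each library is unknown. Each fold was 0.475 times a whole number (tolerance 0.01), from which pileups were recovered; a Poisson tail over 1.11 fragments gave the deposited −log10 p-values within 0.00047%.

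Gene names came from a RefSeq gene table of GRCm38.p6, used for names, types and neighbours only, and 1475 of 1485 symbols matched. Region and transcript position are the authors'. Neighbours are adjacent protein-coding genes in the order of their starts. Every member with a summit is named, as are all unlisted Klf and Ikzf genes. Members and lists were chosen with earlier results of these data known, and no chance test was built. Protein sequences were planned for a split by KRAB domain and were not used here; no sequence of a summit could be read. Scripts (Python 3.11.15, SciPy 1.17.1) were tested on simulated data.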

Additional observations from a re-analysis of the deposited data

How the results depend on the processing

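No paired analysis was possible because each summit has 1 value for the merged libraries, and for the same reason no replicate could be left out. The planned split of Zfp genes into KRAB-type and other genes was not run. Of 22 alternatives over 6 results, 15 stayed within the 95% interval of the reported value and 7 moved beyond it; the Zfp36 and neighbour alternatives and those for Zfp genes by name were chosen after seeing the data. With only summits at or above the list's median fold, the share listed went from 3.52% to 1.37% over all 512 family genes, from 6.25% to 1.04% for the 96 Zbtb, Zkscan, Zscan, Klf and Ikzf genes, and from 2.88% to 1.44% for the 416 Zfp genes. With only coding summits these shares were 1.17%, 1.04% and 1.20%. Fewer summits are counted in both by construction. The coding share of family summits went from 36.8% to 14.3% at or above the median fold. Only 7 members reached that fold, and among them Zfp36l2 alone had a coding summit. The cause was not tested. The median fold ran from 6.17 to 9.97 over its alternatives. Pileups of 6 to 22 fragments at the lower members limit any ranking among them.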

Other observations

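Some genes with zinc finger names fell outside the name patterns and were chosen after their values were seen. Zfhx3, a large homeobox and zinc finger factor gene, had 3 summits in its 3' untranslated region, at nt 12007, nt 16152 and nt 16870, with folds of 8.07, 16.1 and 16.6. Zfand1 had a 3' untranslated summit of 9.97 and Zfpl1 one of 6.65.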
